A study of Homo sapiens with 2 samples.

Results

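The genes described here are NPPA, NPPB, CORIN and NPR3, the natriuretic peptide genes of heart muscle with their processing enzyme and clearance receptor. They were found by gene symbol among the gene expression features, and all 4 of the 4 were found on 1 row each among 36601 genes. The data come from 1 pool of day 15 cardiomyocytes made from H9, a human embryonic stem cell line, whose genotype carries the gCaMP6f calcium reporter. Vials frozen at day 15 were thawed with ROCK inhibitor and labelled with hashtag antibodies, which carry a barcode that can be sequenced, then pooled and captured with 10x Genomics reagents. No label says what any of the 13 hashtags marked, and the only treatment given is that of a pooled sample. All groups below are therefore groups of cells within 1 pool, there are no replicates, and no test was made. Intervals are at 95% and cover counting error only.

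NPPA encodes the precursor of atrial natriuretic peptide and NPPB that of B-type natriuretic peptide. Both hormones leave heart muscle under stretch and lower blood volume and pressure through the guanylyl cyclase receptor NPR1. CORIN is a serine protease on the cardiomyocyte surface that cleaves the atrial precursor, and NPR3 is a receptor without a cyclase domain that takes the peptides up and clears them. In the embryonic heart NPPA marks the atria and the trabeculated ventricular wall and is low in the compact wall. The transcription factor NR2F2 is needed for atrial identity, HEY2 marks the compact ventricular wall, and IRX1 belongs to the Iroquois factors, which in mouse mark parts of the ventricular wall and septum.

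In GENCODE 29 on hg38 both peptide genes lie on the minus strand of chromosome 1, NPPA at chr1:11845709-11848345 and NPPB at chr1:11857464-11858931, with 9118 bases between them. CLCN6, a chloride transporter gene on the plus strand, overlaps NPPA, and whether the authors' counting used strand is not given in the sources used here. CORIN lies on the minus strand at chr4:47593998-47838106 and NPR3 on the plus strand at chr5:32689070-32791724.

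The NPPA promoter is shown as background. NPPA levels are compared below by NR2F2, HEY2 and IRX1, and no letters for those factors were sought in it. Whether the marked letters bear on NPPA levels was not tested. It is the minus strand of chr1:11847734-11848033 (RefSeq, GRCh38.p14), and capitals mark the TATA box letters TATAAA, the GATA factor letters TGATAA and the NKX2-5 core letters AAGTG, the last pair also where they were found on the other strand (as TTATCA and, for NKX2-5, CACTT).
NPPA promoter: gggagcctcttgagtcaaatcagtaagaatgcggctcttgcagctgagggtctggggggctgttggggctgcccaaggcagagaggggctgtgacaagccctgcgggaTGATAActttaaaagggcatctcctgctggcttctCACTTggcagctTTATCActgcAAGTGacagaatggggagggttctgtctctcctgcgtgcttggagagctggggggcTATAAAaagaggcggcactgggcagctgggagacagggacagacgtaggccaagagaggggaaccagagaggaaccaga
On both strands, TATAAA occurred at -29 from the start, the GATA letters at -142 and -95 and AAGTG at -107 and -85. Of 35116 promoters of the same length 11.5% held TATAAA, 16.3% one of the GATA spellings AGATAA and, as here, TGATAA, and 43.1% AAGTG. The T-box letters TCACACC, found in 3.45% of promoters, were not in this window. The CORIN promoter held neither the TATA box letters nor those of the GATA factors and NKX2-5.

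After filters and doublet removal 19309 cells remained, with 1000 to 115854 unique molecular identifiers (UMIs, each 1 captured RNA molecule) per cell. Clustering without these genes gave a cardiomyocyte-like class of 14696 cells (76.1%, 75.5% to 76.7%; median 12768.5 UMIs). The 2929 other cells were stromal-like (1569), epithelial-like (732), endoderm-like (322), epicardial-like (244) and endothelial-like (62). A cluster of 1684 low-depth cells, whose median was 1872 UMIs with 13.1% of them mitochondrial, entered no comparison. Doublets remain, since 10.7% of barcodes were marked against an expected 17.3%. Over all analysed cells NPPA had 94305 UMIs in 8383 cells, NPPB 149682 in 7659, CORIN 20382 in 9701 and NPR3 1125 in 379.

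Which lineages held the peptides, the processing enzyme and the receptor? The peptide genes and CORIN were highest in cardiomyocyte-like cells, and NPR3 was highest outside them. Levels are counts per 1000000 UMIs (CPM), from the summed UMIs of a class. Cardiomyocyte-like cells had 419 CPM of NPPA, all other classes together 64.4 CPM, a ratio of 6.51 (6.25 to 6.79). For NPPB the cardiomyocyte-like level was 648 CPM, that of the others 201 CPM, a ratio of 3.22 (3.14 to 3.29). For CORIN the cardiomyocyte-like level was 87.9 CPM, that of the others 13.5 CPM, a ratio of 6.51 (5.95 to 7.13). NPR3 ran the other way, with a cardiomyocyte-like level of 0.454 CPM (99 UMIs) against 27.6 CPM outside, a ratio of 0.0165. Of 9437 genes measured, which here means at least 10 CPM and 10 counts on the higher side, 12.5% were at least 1.5-fold higher in cardiomyocyte-like cells and 24.8% lower. Scaling by trimmed means (TMM) shifted all log2 ratios by 0.39, which turned 1180 higher and 2343 lower genes into 2642 and 1088, and left the 4 genes on the same side of 1. The NPPA ratio was 13.4 with stromal-like cluster 10 left out, 16.2 with no filter on cells and 3.40 with marked doublets kept. With doublets kept the CORIN ratio was 3.30, and under a stricter filter the NPR3 ratio was 0.0321.

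**Figure D1:**
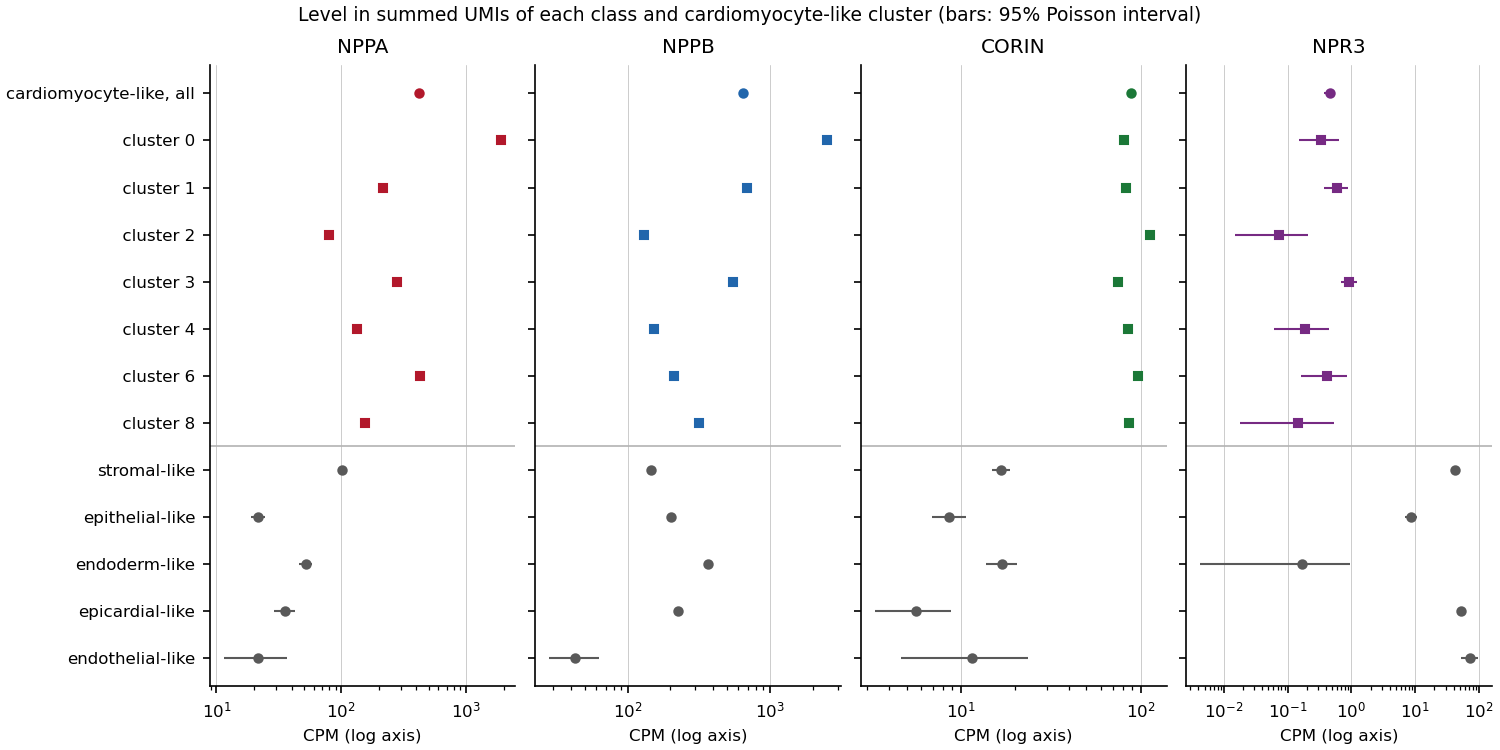
Level of each gene in CPM (log axis) in the summed UMIs of the cardiomyocyte-like class, its 7 clusters and the other classes, with bars for 95% Poisson intervals. NPPA and NPPB spread widely between cardiomyocyte-like clusters, CORIN stays between 74.7 and 113 CPM in all 7, and NPR3 is highest in the endothelial-like, epicardial-like and stromal-like classes.

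Free RNA from lysed cells can put cardiomyocyte transcripts into droplets of other cells. The 12 cardiomyocyte markers were used as a reference for this. Free RNA, remaining doublets and a class's own expression cannot be told apart in them. These markers stood at a median of 7.04% (4.19% to 19.3%) of their cardiomyocyte-like level in epithelial-like cells, 22.7% (15.1% to 30.2%) in endoderm-like cells and 7.40% (2.16% to 21.6%) in epicardial-like cells. In endothelial-like cells they stood at 9.11% (3.45% to 26.7%), and in stromal-like cells at 24.1% (12.1% to 32.4%). CORIN lay within the range of the markers in each of the 5 classes, at 9.81%, 19.3%, 6.38%, 13.1% and 19.1% of its cardiomyocyte-like level in that order. NPPA lay within it in 4 of the 5 and below it in endoderm-like cells, at 12.4%.

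NPPB lay above the range of the markers in epithelial-like, endoderm-like and epicardial-like cells, at 30.9%, 56.4% and 34.9% of its cardiomyocyte-like level. The ratio of NPPA to NPPB UMIs, read only between groups of cells, differed with it. It was 0.108 in epithelial-like cells, 0.142 in endoderm-like cells and 0.156 in epicardial-like cells, against 0.646 (0.641 to 0.652) in cardiomyocyte-like cells. The epicardial-like value rests on 1 cell, which held 181 NPPB UMIs of its 3000. Without it NPPB was at 7.43% (6.30% to 8.70%) of its cardiomyocyte-like level, inside the range of the markers, and NPPA per NPPB UMI was 0.481. Without the cell highest in NPPB, endoderm-like cells were at 49.0% and epithelial-like cells at 29.9%, still above the range. Of the NPPB UMIs of endoderm-like cells, thinned as below, 83.8% lay in the top 5% of cells, against 76.8% in cardiomyocyte-like cells. In epithelial-like cells the NPPB was spread further: with every cell thinned to 3000 UMIs, 139 of 686 cells (20.3%) had NPPB, 43 had 3 or more and 8 had 10 or more. Stromal-like cluster 10, led by STMN2, SHOX2 and TCF21, had 1.05 NPPA UMIs per NPPB UMI, against 0.257 in stromal-like cluster 7, led by PLAT, COL3A1 and MECOM. The part of free RNA and of remaining doublets in these values was not tested.

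NPR3 reached 72.5 CPM in endothelial-like cells, 52.7 CPM in the epicardial-like class and 66.6 CPM in stromal-like cluster 7, against 0.454 CPM in cardiomyocyte-like cells. The ratios to cardiomyocyte-like cells were 160 (109 to 230), 116 (90.0 to 150) and 147 (119 to 183). At 25.6% of genes higher in cluster 7, 24.8% in endothelial-like cells and 22.2% in epicardial-like cells, a call of 1.5-fold was common in these comparisons. Stromal-like cluster 10 was at 6.25 CPM and epithelial-like cells at 8.63 CPM. Endoderm-like cells had 1 NPR3 UMI in all. Stromal-like cells held 63.4% of all NPR3 UMIs, in 163 of their 1569 cells. At 3000 UMIs per cell NPR3 was detected in 20.0% of endothelial-like cells, 11.3% of epicardial-like cells, 8.64% of cluster 7 and 0.105% of cardiomyocyte-like cells. The intervals of the 3 ratios overlap, but all 3 ratios share the 99 cardiomyocyte-like UMIs. The counting intervals of the levels themselves do not overlap between cluster 7 (670 UMIs) and epicardial-like cells (169 UMIs). They leave out the spread between cells, so they do not settle the order of these groups. The endothelial-like level rests on 44 UMIs, and its interval overlaps both, so its place is not settled by counting.

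The rest of the pathway was split between the same lineages. NPR1, the signalling receptor for both hormones, had 33.0 CPM in endothelial-like cells (20 UMIs), 6.86 CPM in epicardial-like and 3.19 CPM in stromal-like cells, against a cardiomyocyte-like 0.0321 CPM (7 UMIs). NPR2, the receptor for C-type natriuretic peptide, was at or below 3.64 CPM in every class, and NPPC, which encodes that peptide, at or below 1.45 CPM. FURIN, the convertase that cleaves the NPPB precursor, was at 41.2 CPM in endothelial-like against 19.1 CPM in cardiomyocyte-like cells. PCSK6, the convertase that activates CORIN, was at 28.0 CPM in endothelial-like against 2.92 CPM in cardiomyocyte-like cells. MME encodes neprilysin, which degrades the peptides, and was at 38.0 CPM in epithelial-like and 21.4 CPM in endothelial-like cells, against 0.404 CPM in the cardiomyocyte-like class. Of the 20 pathway genes listed, 8 were measured in cardiomyocyte-like cells against the others. GUCY1A1, a subunit of the nitric oxide-activated guanylyl cyclase, was higher (84.5 against 33.4 CPM), and MME, PDE3A, PDE5A and PRKG1 were lower. Over all genes of that comparison 12.5% were higher and 24.8% lower. Against cardiomyocyte-like cells, endothelial-like cells had 4 of 7 measured pathway genes higher (NPR1, MME, PCSK6 and FURIN) and 2 lower (GUCY1A1 and IDE, each on 6 endothelial-like UMIs), beside 24.8% and 30.9% of all genes.

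Within the cardiomyocyte-like class NPPA and NPPB were concentrated in few cells, unlike CORIN. In the 14342 cells with at least 3000 UMIs, each thinned to 3000, the 1% of cells with most NPPA held 23.8% of its UMIs and the top 10% held 78.7%. For NPPB these shares were 36.4% and 91.0%, and for CORIN 9.54% and 53.4%. The highest cell had 134 NPPA UMIs of 3000, and another had 272 NPPB UMIs. The variance of NPPA over cells was 17.5 times its mean, and 2 of 313 genes within 2-fold of its mean had a higher value. For NPPB the variance was 47.0 times the mean, and 0 of 221 such genes were higher. For CORIN it was 1.11 times the mean, and 429 of 2290 such genes were higher.

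Cluster 0, the 2908 cardiomyocyte-like cells led among other genes by SAA1, ACTA1, BMP2 and NR2F2, had the highest level of both peptide genes. NPPA was at 1908 CPM in cluster 0 and 208 CPM in the other cardiomyocyte-like cells, and NPPB at 2515 and 384 CPM. The ratios were 9.16 and 6.55, in a comparison in which 7.57% of genes were at least 1.5-fold higher. CORIN was at 81.1 CPM in cluster 0 and 88.9 CPM in the others. Cluster 2, led by MIR133A1HG and ANGPT1, was lowest in both peptide genes, with 80.1 CPM of NPPA and 130 CPM of NPPB, and highest in CORIN, with 113 CPM (110 to 117). At 3000 UMIs NPPB was detected in 10.9% (9.72% to 12.2%) of cluster 2 and 12.3% (10.8% to 13.8%) of cluster 4 (HSPB3, FGF18), against 12% (10.3% to 13.7%) of stromal-like cells, where NPPB lay within the range of the markers at 22.4% of its cardiomyocyte-like level. The intervals overlap, so detection above that of stromal-like cells was not shown in these 2 clusters. Cluster 0 was also the shallowest, with a median of 8539 UMIs against 9541.5 to 21540 in the other 6 clusters. Its 12 cardiomyocyte markers stood at a median of 126% of the class level. The part of depth was not tested.

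Clusters 6 and 1 leaned to opposite peptides. Cluster 6, led by LMOD2, IRX1 and CRHBP, had 430 CPM of NPPA and 213 CPM of NPPB, or 2.02 NPPA UMIs per NPPB UMI (1.94 to 2.11). Cluster 1, led by NMB, MT3 and HLA-DQB1, had 218 CPM of NPPA and 689 CPM of NPPB, or 0.316 (0.308 to 0.324). Leaving out cluster 0, cluster 6 had 2.31 times the NPPA (2.25 to 2.37) and 0.531 times the NPPB (0.513 to 0.549) of the remaining cardiomyocyte-like clusters. Cluster 1 had 1.06 times the NPPA and 2.22 times the NPPB (2.18 to 2.25) on the same footing. Set against all others including cluster 0, the NPPA ratio of cluster 6 was 1.03, so its place depends on the cells it is set against. In the proliferating cluster 3 (UBE2C, CDK1) the ratio of NPPA to NPPB UMIs was 0.507, and NPR3 had 51 of the 99 cardiomyocyte-like UMIs.

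How often did 1 cell hold both peptide transcripts? Of the 14342 thinned cells, 1826 (12.7%, 12.2% to 13.3%) had both, 2639 (18.4%) had NPPA only, 1635 (11.4%) NPPB only and 8242 (57.5%) neither. The product of the separate shares, 31.1% for NPPA and 24.1% for NPPB, is 7.51%. The odds ratio of the 2 by 2 count was 3.49 (3.22 to 3.78) and Spearman's rho over cells 0.319, both given as descriptions of cells that share 1 library. Other classes without cluster 10 had NPPA in 6.0% and NPPB in 14.6% of cells at the same depth. The co-detected share was 27.3% unthinned and 7.25% when 2 UMIs of each gene were required. The odds ratio at that setting was 7.87. It left out cells with exactly 1 UMI of either gene, so it is not on the footing of the 3.49.

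Both-positive cells were most frequent in cluster 0, at 33.0%, and least frequent in cluster 2, at 2.67%. The odds ratio within single clusters was 2.58 in cluster 0, 2.69 in cluster 1, 2.46 in cluster 2, 3.76 in cluster 3, 2.89 in cluster 4, 1.70 in cluster 6 and 3.60 in cluster 8. It was above 1 in all 7, though in clusters 2 and 4 the NPPB share itself did not exceed that of stromal-like cells beyond counting error. In cluster 6 NPPA-only cells made up 29.7% and both-positive cells 8.63%.

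High levels of both peptides overlapped in part. Of 727 cells with 10 or more NPPA UMIs of 3000, 249 (34.3%, 30.8% to 37.8%) also had 10 or more NPPB UMIs, against 5.75% of all cells. Seen from NPPB, the 249 were 30.2% of the 824 NPPB-high cells. Discordance at this depth was also common: 275 of the 727 NPPA-high cells (37.8%) had no NPPB UMI, and 192 of the 824 NPPB-high cells (23.3%) had no NPPA UMI. Cluster 0 held 79.9% of the NPPA-high and 60.1% of the NPPB-high cells. Thus the cells with most NPPA and those with most NPPB came largely from the same cluster. Single cells often carried 1 of the genes at high level and no UMI of the other among 3000. Such a cell may still express the other gene, and these cells were not recounted unthinned.

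**Figure D2:**
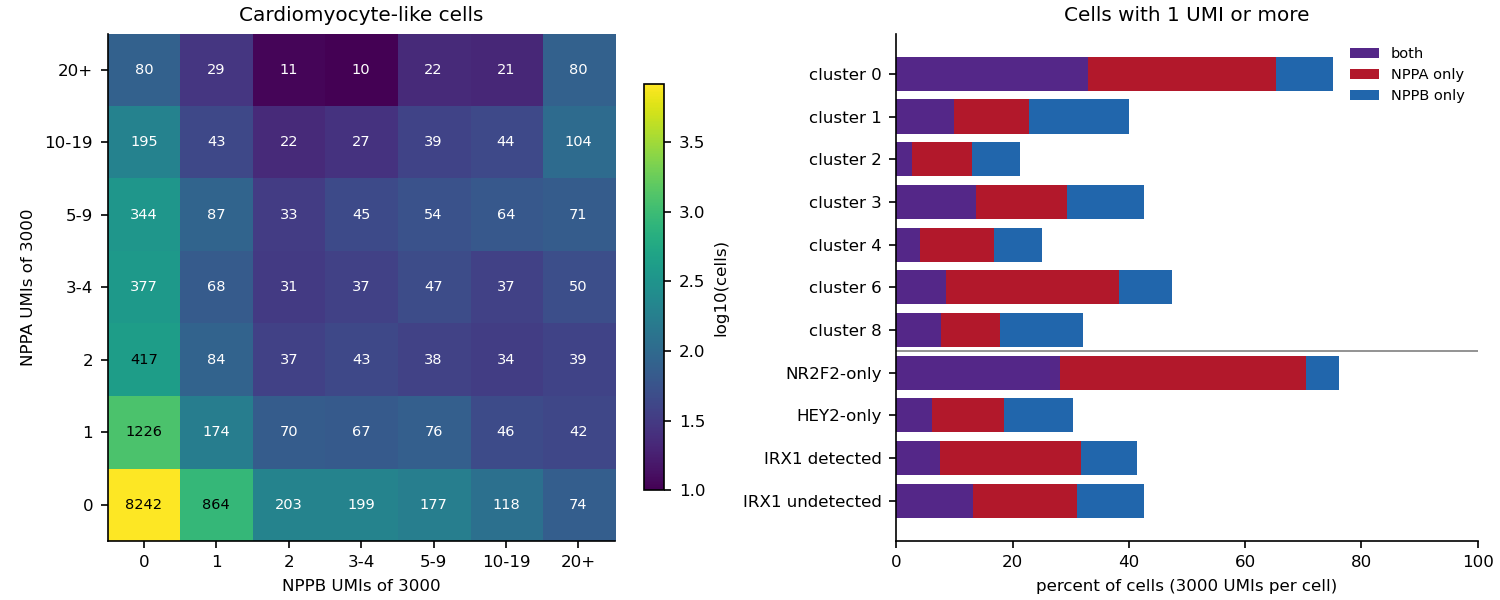
Left, number of cardiomyocyte-like cells at each pair of NPPA and NPPB UMIs per 3000 (colour is log10 of cells). Right, percent of cells with both genes, NPPA only and NPPB only, in each cluster and in cells grouped by NR2F2, HEY2 and IRX1; cluster 0 and NR2F2-only cells have the largest shares with either gene, and 80 cells have 20 or more UMIs of NPPA and none of NPPB.

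Cells were next grouped by NR2F2 and HEY2. With NR2F2 detected and HEY2 not (NR2F2-only, 1391 cells) NPPA was at 2127 CPM, against 150 CPM with HEY2 detected and NR2F2 not (HEY2-only, 4489 cells). The ratio was 14.2 (13.5 to 14.9). NPPB was at 1426 CPM in NR2F2-only and 298 CPM in HEY2-only cells, a ratio of 4.78 (4.59 to 4.98), and CORIN at 67.3 and 92.5 CPM, a ratio of 0.728 (0.637 to 0.829). Of 8773 genes 11.3% were at least 1.5-fold higher in NR2F2-only cells and 5.03% lower. The NPPA ratio was 26.9 when 2 UMIs of the defining gene were required. NPPA was detected in 70.4% of NR2F2-only and 18.6% of HEY2-only cells, and NPPB in 33.9% and 18%. Cells with NPPA alone were 42.2% of NR2F2-only and 12.3% of HEY2-only cells, and cells with both 28.2% and 6.24%. Since NPPA differed by more than NPPB, the NR2F2-only cells leaned to NPPA. The odds ratio of co-detection was near equal, at 2.77 in NR2F2-only and 3.0 in HEY2-only cells.

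Cluster 0 held 78.4% of NR2F2-only and 4.41% of HEY2-only cells, and their median depths before thinning were 8781 and 14393 UMIs. Within single hashtags NPPA was higher in NR2F2-only cells in 11 of 13, with ratios from 0 to 42.6 and a median of 17.7. The exceptions were Hashtag2, with 4 NR2F2-only cells, and Hashtag10, with 2. NPPB was higher in 9 of 13 hashtags, with a median ratio of 2.97. Without the cells of Hashtag14 and Hashtag15, which held most NR2F2-only cells given to a hashtag, the NPPA ratio was 13.1 and the NPPB ratio 6.83. The 159 cells with NR2F2 and HEY2 both detected had 958 CPM of NPPA and 400 CPM of NPPB, and the 8303 cells with neither had 534 and 933 CPM.

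The levels were also read by the number of UMIs of each factor per 3000. NPPA was at 399, 1691, 2530 and 2567 CPM in cells with 0, 1, 2 and 3 or more NR2F2 UMIs, while NPPB was at 710, 1315, 1622 and 906 CPM. With 0, 1, 2 and 3 or more HEY2 UMIs, NPPA was at 763, 214, 102 and 80.1 CPM and NPPB at 1004, 327, 208 and 336 CPM. CORIN was at 92.2, 78.6, 52.1 and 52.5 CPM along the NR2F2 series and between 88.5 and 92.8 CPM along the HEY2 series. NPPA thus climbed and levelled off with NR2F2 and declined throughout with HEY2, while NPPB turned at the last step of both series. CORIN was lower at each step of NR2F2 above 0 than at 0. By hashtag, cells with NR2F2 detected had more NPPA than cells without it in 11 of 13, but more NPPB in 7 of 13, and in the 2 hashtags with most of these cells NPPB was lower, with ratios of 0.540 in Hashtag14 and 0.415 in Hashtag15. Cells with HEY2 detected had 0.232 times the NPPA and 0.301 times the NPPB of cells without it, and NPPA was lower in 12 of 13 hashtags (1.76% of 8416 genes were at least 1.5-fold lower).

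**Figure D3:**
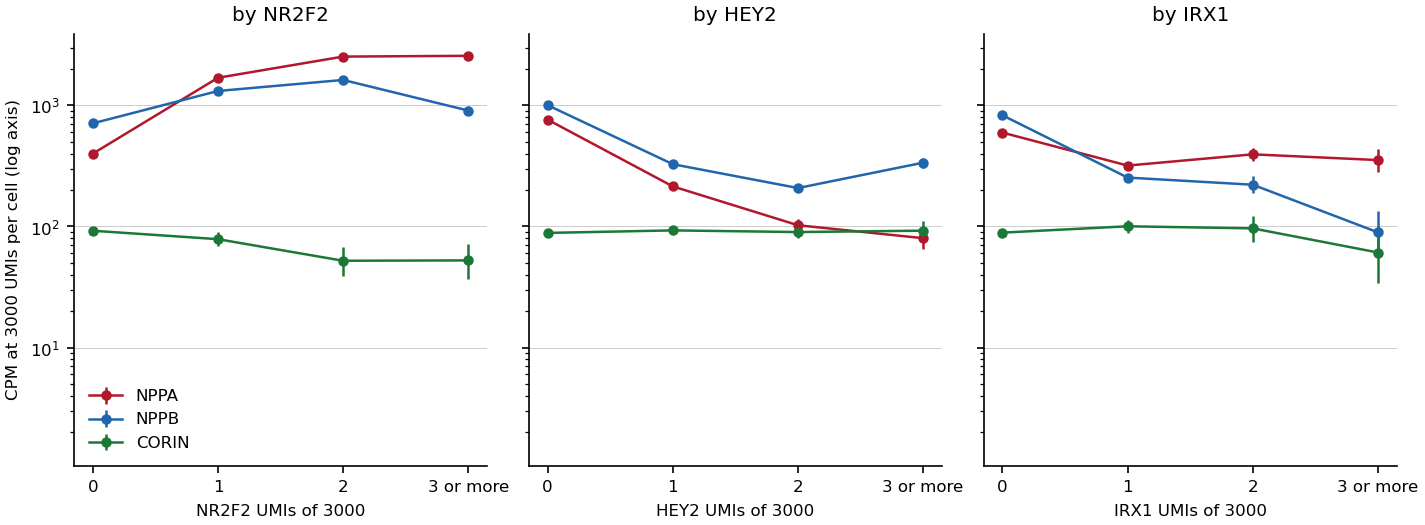
NPPA, NPPB and CORIN in CPM (log axis) in cardiomyocyte-like cells with 0, 1, 2 and 3 or more UMIs of NR2F2, HEY2 or IRX1 per 3000, with 95% Poisson intervals. NPPA climbs with NR2F2 and declines with HEY2, NPPB is lower at every step of IRX1 than at 0, and CORIN moves least.

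Other genes separated NR2F2-only from HEY2-only cells along with the peptides. Of 8 measured atrial genes, NR2F2 itself left out, 7 were higher in NR2F2-only cells, among them the related factor NR2F1 (38.1 against 0.965 CPM), the calcium sensor VSNL1 (25.9 against 1.49 CPM) and the channel gene KCNJ3 (12.5 against 4.08 CPM). HEY1 was lower, at 15.8 against 25.7 CPM. Of 10 measured ventricular genes 9 were lower, led by GJA1, IRX2, IRX4 and IRX1, with IRX1 at 11 against 35.9 CPM. Of 9 pacemaker and atrioventricular canal genes 6 were higher, led by SHOX2 (18.9 against 0.297 CPM) and RSPO3 (76.9 against 6.39 CPM), while TBX18, a sinus node factor, was lower (1.68 against 11.6 CPM). Of 12 stretch and stress genes 7 were higher, including ACTA1 (306 against 38.2 CPM), ANKRD1 (2753 against 503 CPM) and CCN2 (623 against 130 CPM), and 3 were lower: MYH7, FHL2 and EGR1. Of 17 measured regulators of the peptide genes 7 were higher, among them NR2F1, TBX3 (78.6 against 27.3 CPM) and TBX5 (161 against 63.0 CPM), and HAND1 and HEY1 were lower. Of 5 trabecular genes SLIT3 was higher and IRX3 and HAND1 lower, and of 4 compact wall genes TBX20 was higher and MYCN lower. Of 6 secretory granule genes SCG5, PAM and CPE were higher. PAM, which amidates peptide hormones and is abundant in atrial granules, was at 235 CPM in NR2F2-only and 95.8 CPM in HEY2-only cells. GUCY1A1 was lower, at 43.6 against 88.2 CPM. None of the 5 measured neighbours of the peptide genes, among them CLCN6, KIAA2013, PLOD1 and MFN2, passed 1.5-fold, and CLCN6, which overlaps NPPA, was at 11.7 against 10.2 CPM. TMM scaling shifted log2 ratios by -0.16 and turned 994 higher and 441 lower genes into 591 and 806, a shift too small to bring a called gene across 1.

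Over the whole cardiomyocyte-like class, cells with IRX1 had less of both peptides, though not in every split given below. With IRX1 detected (1260 cells) NPPA was at 335 CPM, against 596 CPM without it (13082 cells), a ratio of 0.562 (0.531 to 0.595). NPPB was at 237 CPM in IRX1-detected and 828 CPM in undetected cells, a ratio of 0.286 (0.267 to 0.305). CORIN was at 97.1 and 89.0 CPM. Of 8602 genes 3.34% were at least 1.5-fold higher in IRX1-detected cells and 2.62% lower, and TMM scaling turned 287 higher and 225 lower genes into 192 and 316. At 3000 UMIs NPPB differed more than NPPA, but unthinned the ratios were 0.561 for NPPA and 0.571 for NPPB, so that order was lost. At 5000 UMIs per cell they were 0.537 and 0.464, and in cells given to a hashtag 0.432 and 0.190. NPPA was detected in 31.7% of IRX1-detected and 31.1% of undetected cells, so its difference lay in the level of positive cells, while NPPB was detected in 17.1% and 24.8%. NPPA-only cells were 24.3% of IRX1-detected and 17.8% of undetected cells, and both-positive cells 7.46% and 13.2%. The odds ratio of co-detection was 1.86 with IRX1 and 3.68 without.

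Cluster 6 held 50.6% of IRX1-detected and 7.62% of undetected cells, and cluster 0 held 3.10% and 21.2%. With NR2F2-detected cells left out of both sides the NPPA ratio was 0.759 and the NPPB ratio 0.306, and without Hashtag14 and Hashtag15 the NPPA ratio was 0.701. Within HEY2-only cells the order for NPPA was turned: 177 CPM with IRX1 (375 cells) and 147 CPM without (4114 cells), while NPPB was at 251 and 303 CPM. Within cells with neither NR2F2 nor HEY2, NPPA was at 370 CPM with IRX1 (837 cells) and 553 CPM without (7466 cells), and NPPB at 224 and 1013 CPM. By hashtag the NPPA ratio was below 1 in 9 of 13 and the NPPB ratio in 11 of 13. Hashtag2, with the largest share of IRX1-detected cells (29.9%), had an NPPA ratio of 1.43 (1.14 to 1.79). Hashtag12 had an NPPB ratio of 4.45 (2.92 to 6.64). Thus the lower NPPB of IRX1 cells recurred in these splits more often than the lower NPPA. Along 0, 1, 2 and 3 or more IRX1 UMIs, NPPB was at 828, 253, 221 and 89.4 CPM and NPPA at 596, 318, 394 and 354 CPM. Of 12 stretch and stress genes 6 were lower with IRX1, led by CCN2 (111 against 296 CPM), ANKRD1 (529 against 1212 CPM), ACTA1 (61.6 against 141 CPM) and CCN1 (85.2 against 164 CPM).

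Cells with UMIs of only 1 of the peptide genes among 3000 were compared across all genes. Exactly 1 UMI of that gene was held by 1226 of the 2639 NPPA-only and 864 of the 1635 NPPB-only cells. NPPB-only cells were 11.4% of cardiomyocyte-like cells, below the 14.6% with NPPB in other classes without cluster 10. NPPA-only cells, at 18.4%, were above the NPPA share of those classes. The part of free RNA and of chance capture in these groups was not tested. Of 8531 genes, 243 (2.85%) were at least 1.5-fold higher in NPPA-only than in NPPB-only cells and 146 (1.71%) lower, or 176 and 202 under TMM scaling. The total of 389 (4.56%) was 224 at 5000 UMIs per cell, 76 unthinned, 1102 when 2 UMIs were required, 801 in cells given to a hashtag and 70 at a minimum of 50 CPM. Genes above 50 CPM with the largest ratios are named. NR2F2 led in NPPA-only cells, with 149 against 25.9 CPM in NPPB-only cells (ratio 5.77, 4.80 to 6.98). It was followed by the cytoskeletal regulator CDC42EP5 (62.7 against 22.8 CPM) and the secreted Wnt antagonist SFRP1 (581 against 242 CPM). The collagen gene COL4A6, the secreted kinase gene PKDCC, the ephrin receptor gene EPHA4, the Notch ligand gene JAG1, the transcript AL136171.2, the prohormone gene TRH and the growth factor receptor gene PDGFRA had ratios from 2.32 to 1.95 in that order.

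NMB, the neuromedin B precursor gene, led in NPPB-only cells, with 32.2 CPM in NPPA-only and 146 CPM in NPPB-only cells (ratio 0.221, 0.191 to 0.255). MYH7, the slow ventricular myosin heavy chain gene, was at 228 CPM in NPPA-only and 637 CPM in NPPB-only cells. The metallothionein genes MT2A, MT1X and MT1E had ratios of 0.444, 0.455 and 0.525, and CLU, KRT19, the stanniocalcin gene STC2, ANKRD37 and the activin subunit gene INHBA lay between 0.446 and 0.504. NR2F2 was higher in NPPA-only cells in 6 of 7 clusters and 11 of 13 hashtags, and TRH in 7 and 13. MYH7 and INHBA were not higher in NPPA-only cells in any of the 7 clusters or 13 hashtags. MT1X was not higher in 4 clusters and 12 hashtags. A cluster or hashtag with no counts of a gene would be among those not higher. Of the 20 genes CDC42EP5, PKDCC, MYH7 and STC2 were not used in the clustering. NPPA-only cells lay in cluster 0 for 34.3% and in cluster 1 for 13.0%, against 17.0% and 28.0% of NPPB-only cells. Their median depths were 10923 and 12764 UMIs. The part of cluster membership in these genes was not tested.

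**Figure D4:**
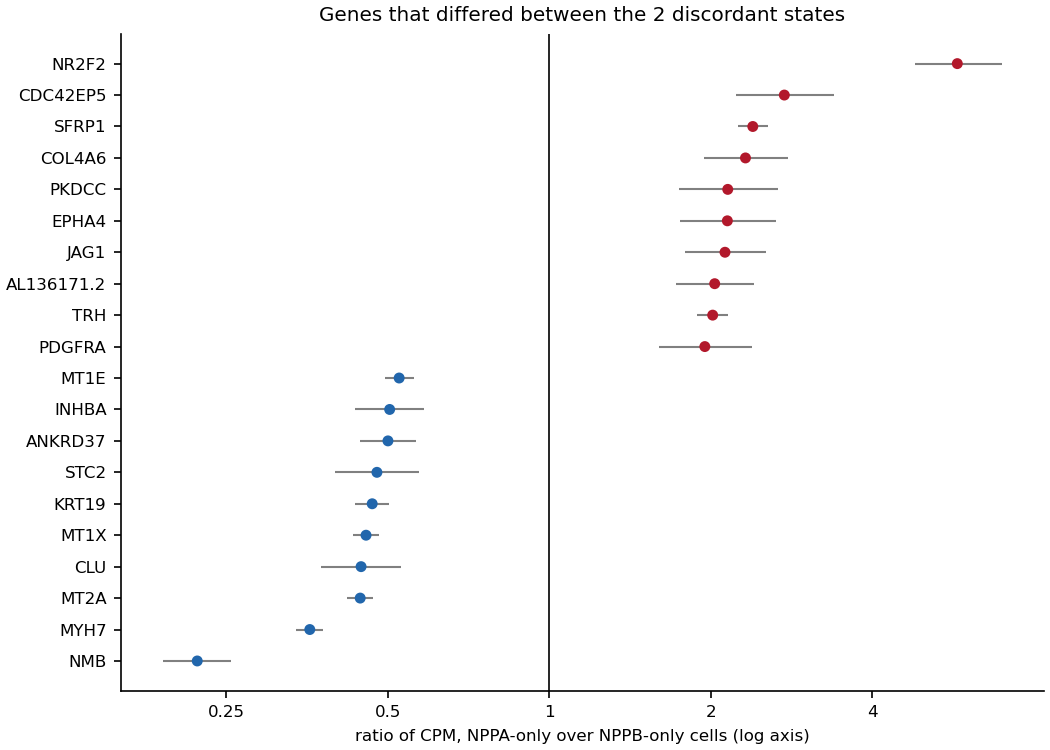
Ratio of CPM, NPPA-only over NPPB-only cardiomyocyte-like cells (log axis), with 95% intervals, for the 10 genes per side that differed most among those at 50 CPM or more. NR2F2 stands at 5.77 and NMB at 0.221, and the other 18 lie between 0.358 and 2.74.

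By list, 5 of 8 atrial genes were higher in NPPA-only cells, among them NR2F2, NR2F1, VSNL1 and TBX5, and 0 were lower. Of 11 ventricular genes IRX1 was higher, at 53.8 against 33.0 CPM, and MYH7, MYL2 and HEY2 were lower, with HEY2 at 100 against 160 CPM. Among 19 regulators of the peptide genes, NR2F2, NR2F1 and TBX5 were among those higher, and HEY2 was lower. Of 12 stretch and stress genes ACTA1 was higher, at 157 against 99.1 CPM, and MYH7 and ATF3 were lower, with ATF3 at 69.1 against 130 CPM. None of 5 measured pathway genes, 6 secretory granule genes or 5 locus neighbours passed 1.5-fold. The stretch and stress list had a median ratio of 0.92, against 1.04 over all genes.

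Cells with both peptides were set against cells with neither, and stretch and atrial genes were among those higher. Of 8517 genes 392 (4.60%) were at least 1.5-fold higher in both-positive cells and 258 (3.03%) lower. The stretch and stress list had 7 of 12 higher and 0 lower, with a median ratio of 2.28 against 0.96 over all genes. ACTA1, the fetal alpha-actin gene, was at 546 CPM in both-positive and 41.8 CPM in neither-positive cells (ratio 13.1, 12.2 to 14.0). ANKRD1, a titin-binding stretch gene, was at 3804 and 524 CPM, CCN2 at 841 and 149 CPM and ATF3 at 216 and 46.8 CPM. NR2F2 was at 120 and 22.8 CPM and HEY2 at 70.1 and 193 CPM. Of 11 ventricular genes 5 were lower, and of 8 atrial genes 6 were higher and HEY1 lower. PAM was at 176 and 95 CPM, and SCG5, a granule chaperone gene, at 11.5 and 4.97 CPM. Cluster 0 held 50.8% of both-positive and 8.47% of neither-positive cells, whose median depths were 10868.5 and 13999 UMIs.

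CORIN did not follow its substrate from cell to cell. It was at 83.8 CPM in both-positive cells, 89.9 CPM in NPPA-only, 82.8 CPM in NPPB-only and 92.3 CPM in neither-positive cells, with intervals from 74.9 to 96.8 CPM in all. It was detected in 21.0%, 22.4%, 21.5% and 23.1% of these cells in the same order. Cells with 10 or more NPPA UMIs had 77.5 CPM of CORIN (66.2 to 90.1). In cells with 0, 1, 2 and 3 or more CORIN UMIs per 3000, NPPA was at 590, 518, 499 and 535 CPM and NPPB at 793, 735, 564 and 1094 CPM. The CORIN levels differed more along the NR2F2 series above, with 92.2 CPM at 0 UMIs and 52.1 and 52.5 CPM at 2 and at 3 or more. That series pools the hashtags. Within single hashtags, CORIN with NR2F2 detected over undetected was below 1 in 10 of 13, with a median of 0.803. The interval included 1 in all 13. In Hashtag15, where 58.4% of cells had NR2F2, CORIN was at 60.4 CPM even in cells without it.

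Across the 13 hashtags, which are unlabelled and not replicates, the cardiomyocyte-like cells differed far more in the peptides than in CORIN. NPPA lay between 82.6 CPM (Hashtag10) and 1723 CPM (Hashtag15), with a median of 351 CPM. NPPB lay between 45.4 CPM (Hashtag10) and 1915 CPM (Hashtag9), with a median of 443 CPM. CORIN lay between 58.3 CPM (Hashtag15) and 107 CPM (Hashtag12), with a median of 91.4 CPM. Hashtag15 was thus at once highest in NPPA and lowest in CORIN, and Hashtag10 lowest in both peptides.

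The hashtags also differed in the balance of the peptides. NPPA per NPPB UMI ran from 0.346 in Hashtag9 to 2.53 in Hashtag15, with a median of 0.778. Hashtag15 had 1723 CPM of NPPA and 681 CPM of NPPB, while Hashtag9 had 663 and 1915 CPM, Hashtag3 747 and 1735 CPM and Hashtag8 515 and 1395 CPM. Hashtag14 was high in both, at 1555 and 1525 CPM. Co-detected cells ran from 1.21% in Hashtag10 to 27.3% in Hashtag14, and NPPA-only cells from 9.43% in Hashtag9 to 46.5% in Hashtag15. The odds ratio of co-detection was 0.877 in Hashtag1 (2 both-positive cells), 1.15 in Hashtag10 and 1.55 in Hashtag12, and between 2.08 and 6.77 in the other 10.

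**Figure D5:**
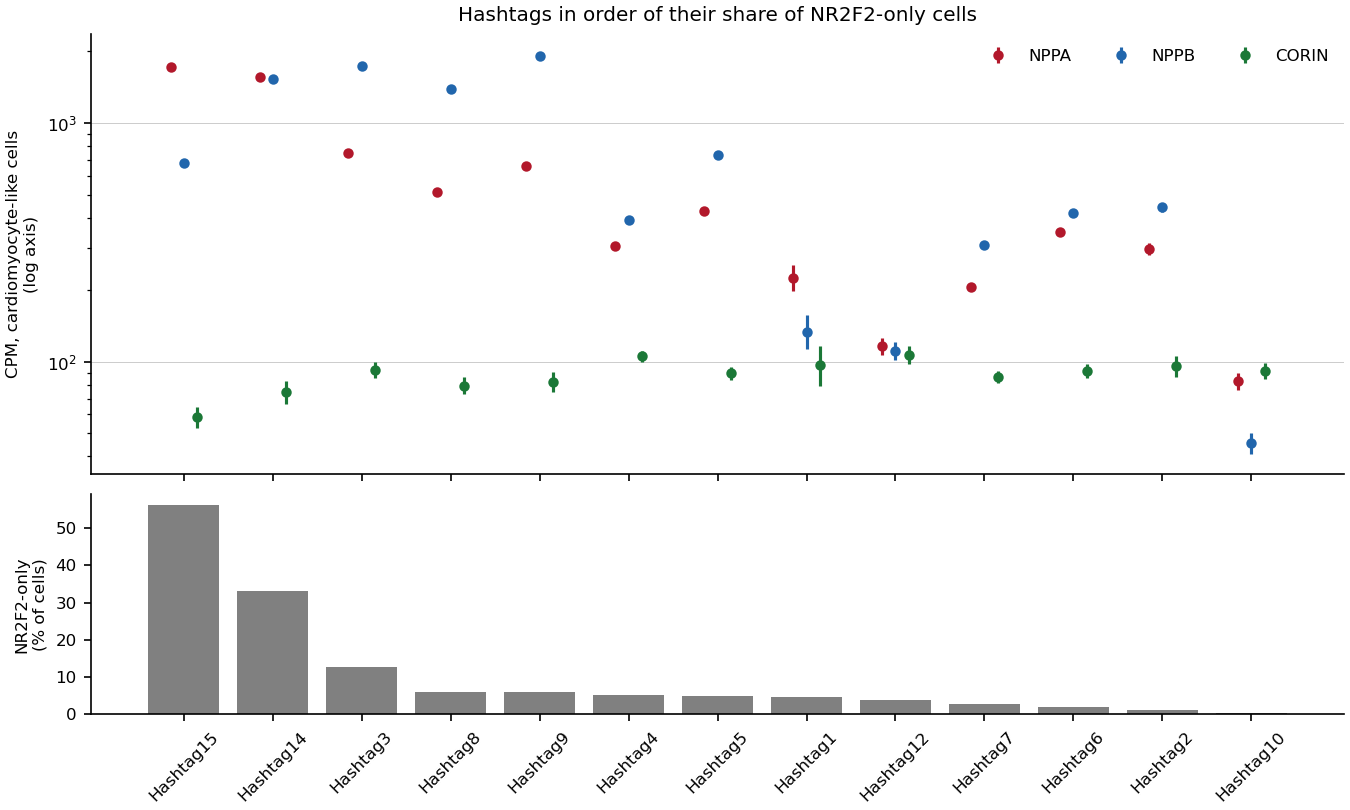
NPPA, NPPB and CORIN in CPM (log axis, 95% Poisson intervals) in the cardiomyocyte-like cells of each hashtag, above the percent of these cells that were NR2F2-only, which sets the order. Hashtag15 and Hashtag14 have the largest NR2F2-only shares, 56.3% and 33.3%, and the highest NPPA, while NPPB peaks in Hashtag9, Hashtag3 and Hashtag14.

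The hashtags differed in makeup as well. Cluster 0 held 79.1% of the cardiomyocyte-like cells of Hashtag15 and 75.1% of Hashtag14, 32.9% of Hashtag3, 25.2% of Hashtag8 and 0.472% of Hashtag10. NPPB did not follow this share: Hashtag9, highest in NPPB at 1915 CPM, had 21.8% of its cells in cluster 0, while Hashtag15 had 681 CPM. Median depths were 8220 UMIs in Hashtag15 and 8052 in Hashtag14, the lowest of the 13, and 18077 in Hashtag10, the highest. Within cluster 0 alone, in the 7 hashtags with at least 50 of its cells, NPPA lay between 1835 and 2650 CPM and NPPB between 681 and 5589 CPM. Within cluster 1, in 6 hashtags, NPPA lay between 135 and 572 CPM and NPPB between 382 and 3332 CPM. In cluster 0, then, NPPA varied little between hashtags while NPPB still varied widely. Other clusters differed from this. In cluster 6, in 4 hashtags, NPPA lay between 335 and 1777 CPM and NPPB between 150 and 272 CPM. In cluster 3, in 9 hashtags, NPPA lay between 52.6 and 1064 CPM and NPPB between 42.6 and 1099 CPM.

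Genes with the pattern most like each peptide were sought over 45 units of hashtag by cluster with at least 50 cells, by Pearson's r of log2(CPM + 5) among 5697 genes. These units share 1 pool and 1 library, so r is a description. For NPPA the highest were TRH (0.887), DKK3 (0.883), ACTA1 (0.881), FAM78A (0.862) and BMP2 (0.855). For NPPB they were IGFBP6 (0.884), CRYAB (0.810), TNFRSF12A (0.808), HEG1 (0.806) and CSRP3 (0.795). For CORIN they were CAP2 (0.715), ALDH6A1 (0.643), FAM210B (0.629), LAMB1 (0.625) and ESRRG (0.623). NPPA and NPPB had an r of 0.790 with each other. NPR3 averaged 0.308 CPM over these units, too little to rank.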

How the data were processed

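The raw UMI counts came as 1 deposited matrix of 24038 barcodes by 36601 genes and 13 hashtags, which the authors made with Cell Ranger 4.0.0 per the file headers and with hg38 per the submitters' processing notes. How reads were aligned, which annotation release was used and how cells were called is not given in the sources used here. No barcode was repeated.

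A barcode was kept from 500 genes and 1000 UMIs upward, with a mitochondrial share of up to 25% (21623 barcodes). Scrublet in Scanpy 1.11.5 (Python 3.11.15) marked 2314, which were removed. Leiden clustering (leidenalg 0.10.2, resolution 0.6) gave 14 clusters, named from marker lists and leading genes. The 4 genes and the pathway, locus, stress and secretory lists (52 genes) were kept out of the clustering. Atrial and ventricular genes were not. Cardiomyocyte-like clusters were those with at least 30000 CPM of 12 markers, set after seeing the data: the nearest named cluster below had 19910 CPM (680 cells), and the low-depth cluster, left out, 41451 CPM. Detection and groups of cells within the class used cells thinned to 3000 UMIs, which left out 354 cells, and a factor counted as detected from 1 UMI. Genes needed 10 CPM and 10 counts on the higher side and were called from 1.5-fold. Intervals are exact Poisson, Clopper-Pearson and conditional binomial (scipy 1.17.1). That of the odds ratio is a large-sample interval on the log scale, with cells taken as independent. A cell was given to a hashtag holding at least 70% of at least 20 hashtag UMIs (7257 cardiomyocyte-like cells). The calculation was tested on simulated data. For the ratios these were summed counts with Poisson error only, so the test does not cover spread between cells.

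Named genes were the 4 members, up to 4 called genes per list and comparison by ratio, the 10 genes per side at 50 CPM or more with the largest ratio between discordant cells, and the 5 most alike per member. A list is also given in full where few of it were called. Some members of the lists are counted but not reported here by name. Members and lists were chosen with earlier results of these data known. Alternatives were other filters, doublets kept, resolution 1.0, TMM scaling (edgeR 4.0.16), 5000 UMIs or no thinning, 2 UMIs for detection, hashtag-assigned cells only and a minimum of 50 CPM. At 2 UMIs for detection, ratios and odds ratios left out cells with exactly 1 UMI of a gene that sets the groups. After seeing the data, leaving out Hashtag14 and Hashtag15, cluster 10, NR2F2-detected cells or the cell highest in NPPB of 3 classes were added.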

Additional observations from a re-analysis of the deposited data

Results flagged for a closer look

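The low-depth cluster of 1684 cells entered no comparison and held signal of all 4 genes above the limit that a count of 0 allows. NPPA was at 137 CPM, NPPB at 226 CPM, CORIN at 171 CPM and NPR3 at 2.90 CPM (12 UMIs). In the 384 of its cells with at least 3000 UMIs CORIN was detected in 41.4%, against 22.5% of cardiomyocyte-like cells at the same depth. The 12 cardiomyocyte markers there stood at a median of 102% (27.7% to 293%) of their cardiomyocyte-like level.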

How the results depend on the processing

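Of 107 values under alternatives for 15 results, 53 stayed within the counting interval or within 1.5 times the count, 54 moved and 0 reversed. All 75 ratios stayed on the same side of 1, 65 of them within 1.5 times the main ratio. Cardiomyocyte-like over other classes, NPPA was 16.2 with no filter, 7.60 with the strict filter, 3.40 with doublets kept, 8.56 under TMM and 13.4 without cluster 10, and NPPB was 3.32, 2.84, 2.29 and 4.23 in the first 4. CORIN was 8.39 with no filter, 3.30 with doublets kept, 8.55 under TMM and 7.64 without cluster 10, and NPR3 was 0.0321 with the strict filter and 0.0216 under TMM. NR2F2-only over HEY2-only, NPPA was 12.6 with doublets kept, 12.7 under TMM, 26.9 at 2 UMIs, 19 in hashtag-assigned cells and 13.1 without Hashtag14 and Hashtag15, and NPPB was 4.55, 4.28, 5.62, 5.12 and 6.83 there, 4.50 with no filter and 6.39 unthinned. IRX1-detected over undetected, NPPA was 0.528 under TMM, 0.644 at 2 UMIs, 0.432 in hashtag-assigned cells, 0.701 without Hashtag14 and Hashtag15 and 0.759 without NR2F2-detected cells. NPPB was 0.316 with doublets kept, 0.464 at 5000 UMIs, 0.571 unthinned, 0.226 at 2 UMIs, 0.190 in hashtag-assigned cells and 0.306 without NR2F2-detected cells. Co-detected cells were 16.3% at 5000 UMIs, 27.3% unthinned, 7.25% at 2 UMIs, 13.8% in hashtag-assigned cells and 11.8% without Hashtag14 and Hashtag15. The odds ratio was 2.96 at 5000 UMIs, 2.42 unthinned and 3.83 in hashtag-assigned cells. At 2 UMIs it was 7.87, with cells holding 1 UMI of either gene left out. Genes past 1.5-fold between discordant cells numbered 224 at 5000 UMIs, 76 unthinned, 1102 at 2 UMIs, 801 in hashtag-assigned cells and 70 at 50 CPM. Without its highest cell, NPPB was 7.43% of the cardiomyocyte-like level in epicardial-like cells and 49.0% in endoderm-like cells. The cause of each other move was not tested. No paired analysis was possible because the series holds 1 pool with no replicates. Depth limits the 62 endothelial-like cells most, and at 3000 UMIs a cell with no peptide UMI may still express the gene.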

Other observations

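SHOX2, the factor of the sinus node, was detected in 76 thinned cardiomyocyte-like cells. These had 2443 CPM of NPPA and 421 CPM of NPPB, and 53.9% of them held NPPA without NPPB. Over all 14342 thinned cardiomyocyte-like cells NPPA was at 573 CPM, NPPB at 776 CPM and the NPPA-only share was 18.4%. SHOX2 was among the leading genes of stromal-like cluster 10 too, where NPPA was at 208 CPM and NPPB at 198 CPM.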
